A study of Mus musculus with 16 samples.

Results

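Carriers of di- and tricarboxylates were examined in cultured mouse hepatocytes exposed to itaconate, to lipid or to both. The set held 7 genes, taken by symbol from the 55450 genes of the deposited count table: the plasma membrane importers Slc13a2, Slc13a3 and Slc13a5, the mitochondrial carriers Slc25a1, Slc25a10 and Slc25a11, and the exporter Abcg2. Each symbol was found, and the rule itself used no measured value, though the set was put together with earlier results of these data known. The hepatocytes were primary liver parenchymal cells from wild-type mice, and all groups shared the same overnight culture in DMEM with fetal bovine serum and insulin-transferrin-selenium. The untreated group received no addition. The itaconate group received 10 mM sodium itaconate, the lipid group a 1 in 10 dilution of chemically defined lipid mixture 1 (fatty acids and cholesterol), and the lipid + itaconate group received both. Each group had 4 libraries of mRNA, lettered A to D. The labels do not say whether the letters stand for separate animals or cultures, so p-values measure only the spread between these libraries, which may be technical.

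Itaconate is a dicarboxylate made in mitochondria from cis-aconitate, mainly in activated macrophages, and it is charged at neutral pH, so that it crosses membranes by carriers. The SLC13 members of this set couple the uptake of succinate, citrate and related anions to sodium. SLC13A5 is the citrate importer of liver, SLC13A2 is best known from kidney and intestine, and SLC13A3 is a high-affinity dicarboxylate importer that has been described to carry itaconate. Among the mitochondrial carriers, SLC25A1 exchanges citrate for malate and supplies cytosolic citrate for fatty acid synthesis, SLC25A10 exchanges malate or succinate for phosphate, and SLC25A11 exchanges 2-oxoglutarate for malate in the malate-aspartate shuttle. ABCG2 is an ATP-driven exporter of the canalicular membrane that carries urate and many drugs and has been described to export itaconate. The comparisons below address whether mRNA of these carriers moved with their possible cargo, with lipid load, or with both.

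Library totals lay between 22346049 and 35512004 expected counts, and levels are given as CPM (counts scaled to library size by the TMM method). Markers of hepatocytes were high in all libraries. Alb, Ttr, Apoa1, Cps1 and Hnf4a summed to between 27182 and 50175.5 CPM in each library. Markers of other liver cells were present at unequal levels. Summed macrophage markers ranged from 149.5 to 321 CPM, with 6 of 7 at a mean of at least 1 CPM, and summed endothelial markers from 10.9 to 22.1 CPM, with 5 of 6. The macrophage sum was 170 to 275 CPM in untreated, 149.5 to 229 CPM in itaconate, 224 to 321 CPM in lipid and 211 to 315 CPM in lipid + itaconate libraries, most of it from Cd68 (125 to 299.6 CPM). Of the 6 macrophage markers tested, Cd68 rose with lipid (log2 0.43 ± 0.049), Adgre1 and Cd5l fell (-0.82 ± 0.214 and -0.81 ± 0.146) and 3 were not called. In lipid + itaconate against itaconate, Cd68 rose and the other 5 fell. Whether these cells had a part in the lipid changes below was not tested. Of the 6 cholangiocyte markers, Spp1 averaged 529.9 CPM and Sox9 112 CPM, while Krt7, Krt19, Epcam and Cftr stayed under 1 CPM, and of the 6 stellate markers only Reln reached 1 CPM. In bulk samples such as these, fewer cells of a type and less RNA per cell cannot be told apart.

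In the GENCODE annotation of GRCm38, Slc13a5 (ENSMUSG00000020805.14) lay at chr11:72241989-72267222 on the minus strand, Slc13a2 (ENSMUSG00000001095.5) at chr11:78397087-78422217 on the minus strand and Slc13a3 (ENSMUSG00000018459.15) at chr2:165405028-165473230 on the minus strand. Slc25a1 (ENSMUSG00000003528.15) lay at chr16:17925223-17928219 on the minus strand, Slc25a11 (ENSMUSG00000014606.14) at chr11:70644196-70647479 on the minus strand and Slc25a10 (ENSMUSG00000025792.9) at chr11:120491840-120499187 on the plus strand. Abcg2 (ENSMUSG00000029802.13) spanned chr6:58584523-58695676 on the plus strand. Counts in this table cover all annotated exons of a gene. For 5 of the 7 genes an annotated gene on the opposite strand overlapped. The partners of Slc13a2, Slc13a3, Slc13a5 and Slc25a10 were at or near 0 CPM, with a highest value of 0.187 CPM for Gm11788 beside Slc25a10. Rnf167 overlapped Slc25a11 by 245 bases at 24.5 to 32.1 CPM. The libraries were stranded, but the strand setting of the counting is not given in the sources used here, so the Slc25a11 counts could hold some Rnf167 reads.

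Of the 5 genes abundant enough to be tested, 4 passed the test between lipid and untreated cultures (Slc13a5, Slc25a1, Slc25a11 and Abcg2), where 47.5% of all genes tested did, and their start regions are shown to give the sequence beside the measurements. RefSeq windows of GRCm38.p6 reach from 250 bases before to 50 after an annotated start, and these 4 genes had 7 such windows. The 4 windows that held a searched motif follow, 5′ to 3′ on the gene's strand, with motif matches in capitals.
Slc25a1 (chr16:17928170-17928469, minus strand): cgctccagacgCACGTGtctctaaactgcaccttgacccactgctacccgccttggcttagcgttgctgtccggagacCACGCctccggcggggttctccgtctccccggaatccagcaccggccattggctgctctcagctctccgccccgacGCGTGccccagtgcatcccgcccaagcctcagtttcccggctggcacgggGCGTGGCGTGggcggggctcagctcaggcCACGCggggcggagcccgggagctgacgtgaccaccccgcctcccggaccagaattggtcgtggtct
Slc25a11 (chr11:70646990-70647289, minus strand): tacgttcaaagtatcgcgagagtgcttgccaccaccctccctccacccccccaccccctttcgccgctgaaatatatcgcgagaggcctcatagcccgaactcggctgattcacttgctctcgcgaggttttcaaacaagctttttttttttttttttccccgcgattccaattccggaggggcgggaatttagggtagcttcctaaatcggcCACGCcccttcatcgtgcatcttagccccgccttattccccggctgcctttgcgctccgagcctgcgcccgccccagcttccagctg
Slc13a5, the second of its windows (chr11:72266555-72266854, minus strand): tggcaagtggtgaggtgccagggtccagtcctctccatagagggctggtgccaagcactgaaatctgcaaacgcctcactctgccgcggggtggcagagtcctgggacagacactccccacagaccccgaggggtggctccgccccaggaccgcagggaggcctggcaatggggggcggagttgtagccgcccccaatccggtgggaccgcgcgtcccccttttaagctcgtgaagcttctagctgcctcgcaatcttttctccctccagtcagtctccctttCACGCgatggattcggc
Abcg2, the third of its windows (chr6:58640296-58640595, plus strand): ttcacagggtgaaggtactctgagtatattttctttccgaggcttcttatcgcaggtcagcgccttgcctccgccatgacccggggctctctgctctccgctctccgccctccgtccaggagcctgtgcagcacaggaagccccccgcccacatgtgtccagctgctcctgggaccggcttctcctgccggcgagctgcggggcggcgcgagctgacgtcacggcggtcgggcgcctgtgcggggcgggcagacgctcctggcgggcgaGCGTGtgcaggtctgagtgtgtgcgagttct
The motifs, searched on both strands, were the sterol regulatory element TCACNCCAC, the E-box core CACGTG, the xenobiotic response element core GCGTG and the antioxidant response element TGACNNNGC. They occurred in 1.24%, 7.15%, 32.4% and 12.4% of all 32851 promoter windows. No match overlapped another of a different kind. Slc25a1 held the E-box core 239 bases before its start, and the xenobiotic core 5 times, on the plus strand of the gene at -96, -46 and -41 and on the other strand at -172 and -17. The xenobiotic core stood at -37 in Slc25a11 and at +34 in the Slc13a5 window, in each case on the other strand, and at +20 in the Abcg2 window. The letters TCACNCCAC were not in any of the 10 windows of the 7 genes. Of those 10 windows 5 held a searched motif, so matches were not confined to genes called with lipid. Slc13a3, too scarce to be tested, held the E-box core at -154 and the antioxidant response element at -201. No other window of the set held the antioxidant response element. These matches are descriptions of sequence and no measure of binding.

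Slc25a1 was by far the most abundant of the carriers. Divided by the union length of its exons, its level averaged 81.6 CPM per kilobase over the 16 libraries. Slc25a11 followed at 15.9, Slc25a10 at 13.4, Abcg2 at 9.70 and Slc13a5 at 5.41 CPM per kilobase. The scarce importers Slc13a2 and Slc13a3 averaged 0.143 and 0.0928 CPM per kilobase. The citrate importer therefore exceeded them 37.7-fold and 58.3-fold per length. With the longest transcript as the length, Slc25a10 moved ahead of Slc25a11, at 22.9 against 19.7 CPM per kilobase, and the other ranks stood. Slc13a2 and Slc13a3 did not reach the mean of 1 CPM required for testing, so 5 of the 7 genes were among the 11675 genes tested. For both scarce genes, values come from the same model run without that requirement. That fit had 8521 degrees of freedom, against 15.7 for the tested genes, so it shared 1 spread almost wholly between genes. Its SEs, intervals and p-values take little account of the scarce genes' own spread between libraries. It also called 231 genes for the interaction, against 1 with the requirement.

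More of these genes were called with lipid than with itaconate. Slc13a5, Slc25a1 and Slc25a11 rose and Abcg2 fell with lipid against untreated, while Slc25a10 was not called. That is 4 of 5 tested at an adjusted p under 0.05, where 47.5% of all genes tested were called, 23.8% as higher and 23.7% as lower. Lipid + itaconate against itaconate called 4 of 5, with Slc25a1 and Slc25a11 higher and Slc25a10 and Abcg2 lower, against 47% of all genes (23.5% higher and 23.5% lower). Itaconate against untreated called 1 of 5, a lower Slc25a1, where 4.91% of all genes were called, 1.96% as higher and 2.95% as lower. Lipid + itaconate against lipid also called 1 of 5, a lower Slc13a5, where 2.58% were called, 1.32% as higher and 1.26% as lower. Median log2 changes over the 5 genes were 0.11, 0.13, -0.12 and -0.11 in that order, and all lay within 0.005 of 0 over all genes tested. The 4 comparisons reuse the same 4 groups of libraries and are not independent of each other. The plot of log2 changes sets the genes side by side.

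**Figure D1:**
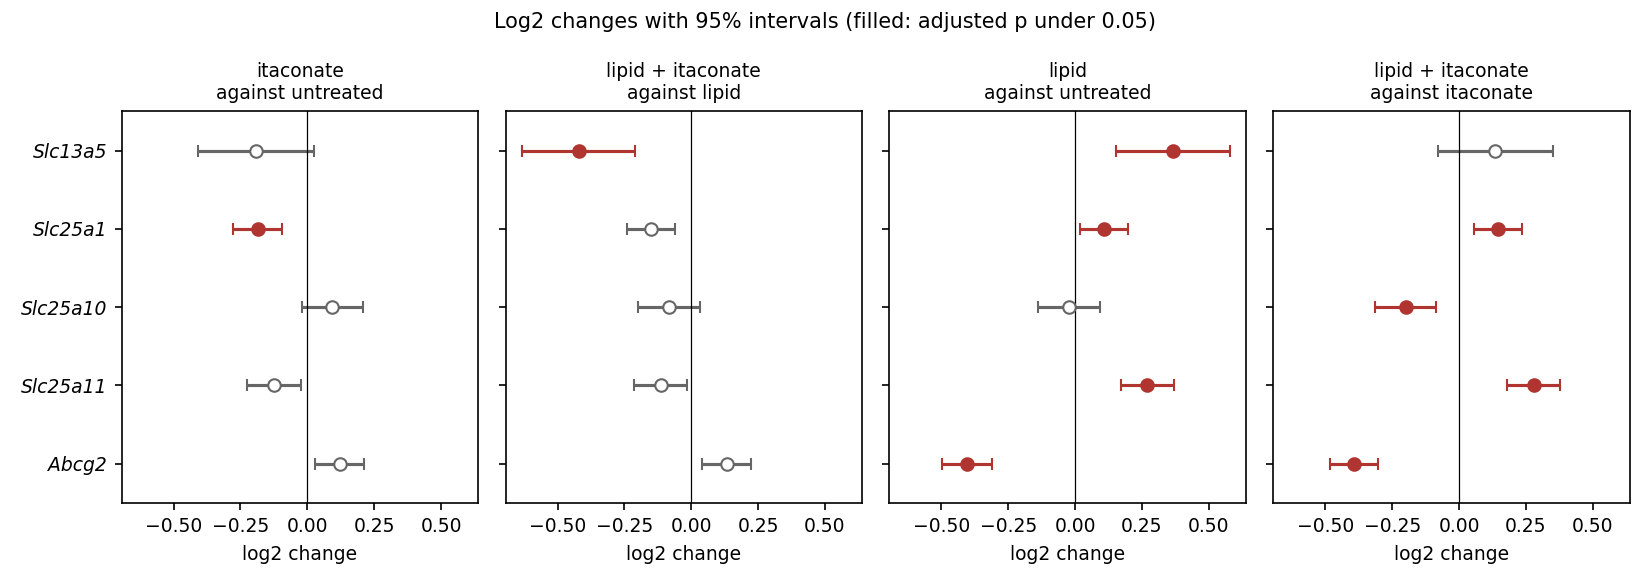
Log2 change (x axis) of the 5 tested carriers (rows) in 4 comparisons (panels), with points for the estimates of edgeR and bars for 95% intervals. Filled points have an adjusted p under 0.05: Abcg2 stood at -0.40 and -0.39 in the lipid comparisons, Slc25a11 at 0.27 and 0.28, and the itaconate comparisons hold the calls of Slc25a1 at -0.19 and Slc13a5 at -0.42.

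Slc13a5, the citrate importer of the hepatocyte surface, was highest in lipid-treated cells. Untreated libraries A to D held 23.8, 26.7, 26.7 and 26.2 CPM, and lipid libraries 28.4, 32.0, 39.8 and 33.1 CPM. Every lipid library lay above every untreated library. Groups also did not overlap for Slc25a1 between lipid + itaconate and lipid, nor for Abcg2 between lipid + itaconate and itaconate. The share of all genes without such overlap was not computed. The change was 0.36 ± 0.100 (log2 ± SE, n = 4 per group; 95% interval 0.15 to 0.58; adjusted p = 0.00727), and it stayed called in all 24 alternative analyses (another tool, scaling, filter, choice of libraries or block, or a library left out). With lipid + itaconate the libraries held 24.8, 29.6, 21.98 and 23.1 CPM. Each was lower than the lipid library of the same letter, with log2 differences of -0.19, -0.11, -0.86 and -0.52 in A to D. The groups overlapped because 29.6 CPM in B exceeded 28.4 CPM in lipid A. The level fell by 0.42 ± 0.100 on the log2 scale against lipid (95% interval -0.63 to -0.21, adjusted p = 0.0379).

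That Slc13a5 call was close to the threshold. It was lost in 11 of the 24 alternatives, with adjusted p = 0.241 without the letter as a block and 0.276 when only the 8 libraries compared were fitted. Leaving out a library ended it for untreated A (0.0519), untreated C (0.0546), itaconate C (0.0509), lipid A (0.0521), lipid C (0.107), lipid D (0.124), lipid + itaconate A (0.0640) and lipid + itaconate D (0.0938). It was also lost without letter A in any group (0.134). The estimate itself ranged from -0.50 to -0.32 over all alternatives. Itaconate libraries without lipid held 20.1, 27.8, 24.4 and 18.9 CPM for Slc13a5, overlapping the untreated libraries, and 3 of 4 letters were lower. The log2 change of -0.19 ± 0.102 was not called (95% interval -0.41 to 0.02, adjusted p = 0.293). The difference between the itaconate changes with and without lipid was -0.23 ± 0.143 (95% interval -0.53 to 0.07, adjusted p = 0.694), so the 2 changes were not shown to differ. Lipid + itaconate against itaconate gave 0.13 ± 0.101 (95% interval -0.08 to 0.35, adjusted p = 0.291). The order of group means was lipid, untreated, lipid + itaconate and itaconate, with overlap between neighbours among the last 3.

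**Figure D2:**
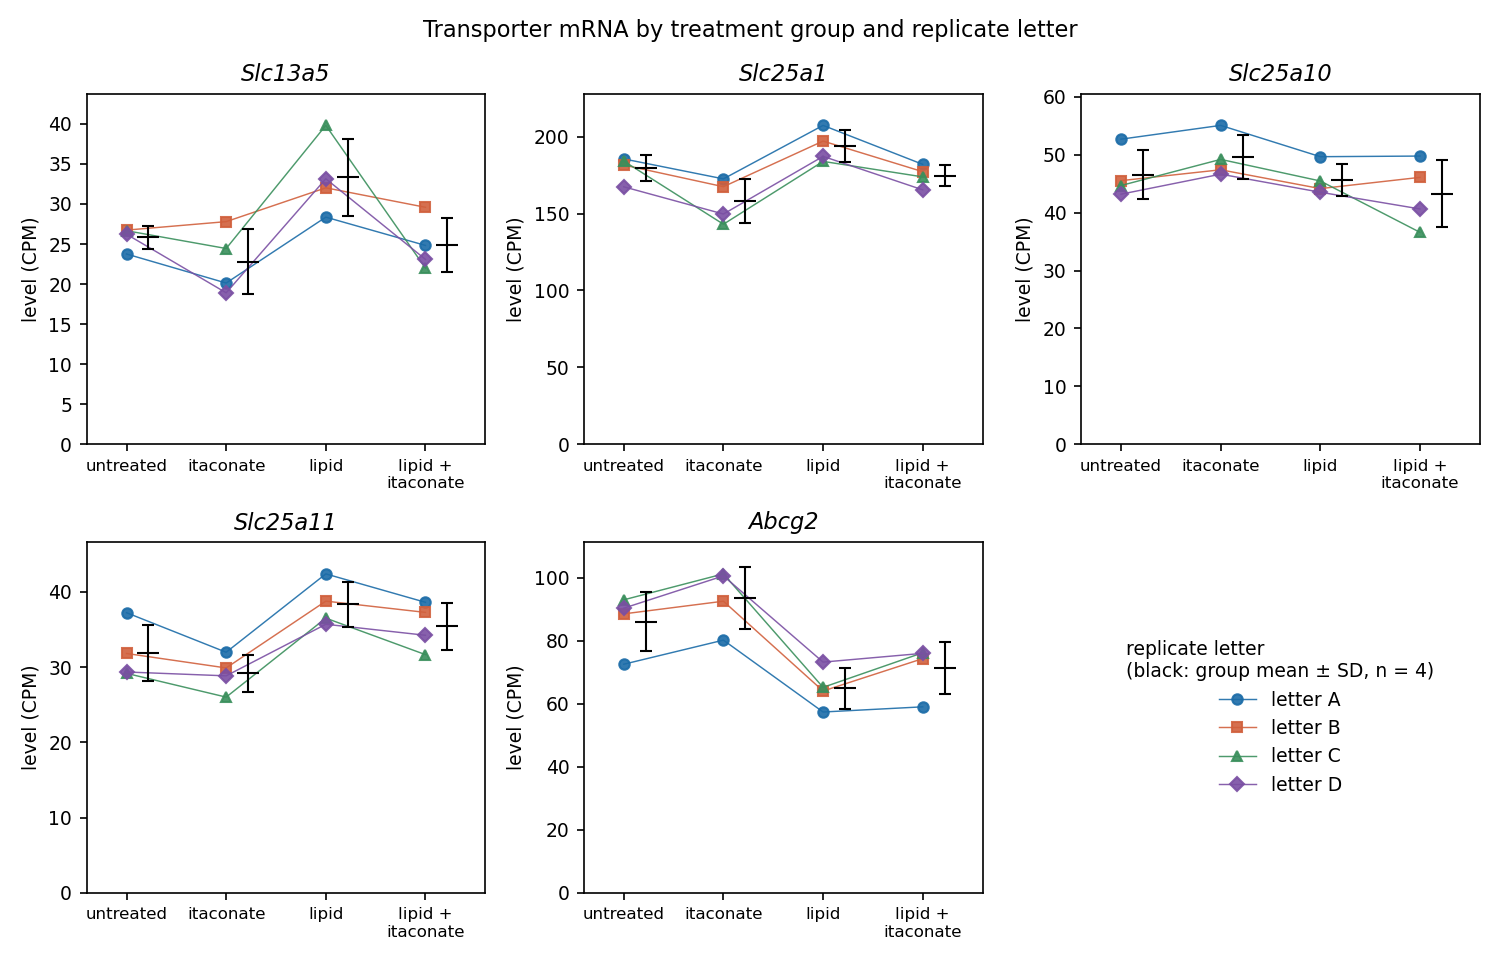
Levels in CPM (y axis, from 0) of the 5 tested carriers in the 4 groups (x axis). Coloured points joined by lines are libraries of the same replicate letter and black bars are the group mean ± SD (n = 4); the lipid libraries of Slc13a5 (28.4 to 39.8 CPM) lay above the untreated ones (23.8 to 26.7 CPM), and Abcg2 was lower in the lipid library of each letter.

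Slc25a1, the mitochondrial citrate carrier, was the only gene of the set called lower with itaconate in the absence of lipid. Untreated libraries A to D held 186, 182, 184 and 167 CPM, and itaconate libraries 173, 167, 143 and 149.7 CPM. Every itaconate library was lower than the untreated library of its letter, by 0.10 (A) to 0.36 (C) on the log2 scale, and the groups overlapped through untreated D. The level fell by 0.19 ± 0.043 on the log2 scale, or -12.1% (95% interval -0.28 to -0.10, adjusted p = 0.0207). The call was lost in 5 of 24 alternatives. Adjusted p was 0.217 without the block, 0.0778 without untreated C, 0.115 without itaconate C, 0.0659 without itaconate D and 0.067 without letter A, while the estimate stayed between -0.21 and -0.14.

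In the presence of lipid, Slc25a1 held 207, 197, 184 and 187 CPM in the lipid libraries and 182, 177, 174 and 165 CPM in the lipid + itaconate libraries. These groups did not overlap. The change of -0.15 ± 0.043 missed the threshold (95% interval -0.24 to -0.06, adjusted p = 0.0723). It passed with DESeq2 (0.0274) and without lipid + itaconate C (0.0338). The itaconate changes with and without lipid differed by 0.04 ± 0.060 (95% interval -0.09 to 0.16, adjusted p = 0.908).

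Lipid raised Slc25a1 by 0.11 ± 0.043 on the log2 scale, or 7.85% (adjusted p = 0.0459), and it was higher in 3 of 4 letters, with C almost level between the groups. This small rise was lost in 13 of 24 alternatives, and adjusted p ranged from 0.0139 to 0.18. It was lost without the block (0.18), without letter A (0.17), with no filter (0.0919), with RLE size factors (0.0568) and with DESeq2 (0.0539). A left-out library ended it for untreated A (0.119), B (0.115) or D (0.122), lipid A (0.0862), B (0.0702) or D (0.121), itaconate D (0.0593) and lipid + itaconate D (0.0556). Against itaconate, lipid + itaconate was higher by 0.14 ± 0.043 (adjusted p = 0.0114), in 4 of 4 letters with overlapping groups. That call was lost without the block (0.085) and without itaconate C (0.064). Group means of Slc25a1 ran from lipid (194 CPM) over untreated (179.7 CPM) and lipid + itaconate (175 CPM) to itaconate (158 CPM), and each neighbouring pair overlapped.

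Slc25a11, the oxoglutarate carrier, rose with lipid whether or not itaconate was present. Untreated libraries A to D held 37.2, 31.8, 29.2 and 29.4 CPM and lipid libraries 42.4, 38.8, 36.5 and 35.7 CPM. The lipid library was higher in each letter, and the groups overlapped because letter A was high throughout. The change was 0.27 ± 0.047, or 20.5% (95% interval 0.17 to 0.37, adjusted p = 0.000229). Itaconate libraries held 32.0, 29.9, 26.0 and 28.8 CPM and lipid + itaconate libraries 38.6, 37.3, 31.7 and 34.2 CPM, which again overlapped while every letter was higher with lipid. That change was 0.28 ± 0.047 (95% interval 0.18 to 0.38, adjusted p = 0.000196), and both lipid calls stayed in all 24 alternatives. The itaconate libraries were lower than their controls in 4 of 4 letters, without lipid (-0.12 ± 0.047, adjusted p = 0.137) and with lipid (-0.11 ± 0.046, adjusted p = 0.207), and neither passed. Rnf167, the overlapping gene, had log2 changes of 0.01 ± 0.072 and 0.09 ± 0.071 in the lipid comparisons of the same order.

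Slc25a10, the dicarboxylate carrier, was level between untreated and lipid cells. Untreated libraries A to D held 52.7, 45.5, 44.7 and 43.2 CPM and lipid libraries 49.7, 44.2, 45.5 and 43.5 CPM, with 2 letters higher and 2 lower. The log2 change was -0.02 ± 0.054 (95% interval -0.14 to 0.09, adjusted p = 0.752). Itaconate libraries held 55.1, 47.4, 49.2 and 46.7 CPM and lipid + itaconate libraries 49.8, 46.1, 36.6 and 40.7 CPM. Every lipid + itaconate library was lower than the itaconate library of its letter, by 0.04 (B) to 0.43 (C) on the log2 scale, with overlapping groups. The level fell by 0.20 ± 0.054 on the log2 scale, or -12.9% (95% interval -0.31 to -0.09, adjusted p = 0.00679). The call was lost only without the block (adjusted p = 0.0972) among the 24 alternatives. Itaconate against untreated gave 0.09 ± 0.054, higher in 4 of 4 letters (adjusted p = 0.336), and lipid + itaconate against lipid -0.08 ± 0.054 (adjusted p = 0.455). The difference of these changes was -0.18 ± 0.077 (95% interval -0.34 to -0.01) with an unadjusted p of 0.0352 and an adjusted p of 0.543.

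Abcg2, the exporter, fell with lipid, and its change had the smallest adjusted p of the set. Untreated libraries A to D held 72.6, 88.6, 93.0 and 90.4 CPM and lipid libraries 57.4, 64.1, 65.2 and 73.2 CPM. Every letter was lower with lipid, by 0.30 (D) to 0.51 (C) on the log2 scale, and only untreated A and lipid D made the groups overlap. The level fell by 0.40 ± 0.043 on the log2 scale, or -24.4% (95% interval -0.50 to -0.31, adjusted p = 2.78e-06). Itaconate libraries held 80.2, 92.6, 101 and 100.6 CPM and lipid + itaconate libraries 59.0, 74.3, 76.2 and 76.0 CPM. These groups did not overlap, and the change was -0.39 ± 0.043 (95% interval -0.48 to -0.30, adjusted p = 4.21e-06). Both calls stayed in all 24 alternatives.

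With itaconate, Abcg2 was higher in 4 of 4 letters both without and with lipid, but neither change passed. Itaconate against untreated gave 0.12 ± 0.043 (95% interval 0.03 to 0.21, adjusted p = 0.113), and lipid + itaconate against lipid 0.13 ± 0.043 (95% interval 0.04 to 0.22, adjusted p = 0.12). The former passed only when the 8 libraries compared were fitted without the others (adjusted p = 0.0422). The changes with and without lipid differed by 0.01 ± 0.061 (95% interval -0.12 to 0.14, adjusted p = 0.978). Letter A was the lowest library of Abcg2 in each group. Among markers of other cells that could carry this exporter, the summed cholangiocyte list moved in the same direction, from 600.3 to 1171 CPM in untreated and 336 to 609 CPM in lipid libraries. That sum was nearly all Spp1 and Sox9 (529.9 and 112 CPM on average), the members that were tested. Both fell (log2 -0.97 ± 0.070 and -0.37 ± 0.056). Krt7, Krt19, Epcam and Cftr were under 1 CPM and did not share in the fall of the sum. Krt19 and Epcam averaged 0.281 and 0.333 CPM in untreated and 0.317 and 0.347 CPM in lipid libraries, and Cftr was at 0 CPM. Summed endothelial markers ranged from 11.2 to 22.1 CPM in untreated and from 12.6 to 21.4 CPM in lipid libraries. Whether such cells were present, or had a part in the Abcg2 change, was not tested.

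For the interaction of itaconate and lipid, edgeR called 0 of the 5 tested carriers, DESeq2 0 and limma-trend 0, and 1 had an unadjusted p under 0.05 in each of the 3 tools. Over all 11675 genes tested, edgeR called 1 (0.00857%), DESeq2 36 and limma-trend 1. An unadjusted p under 0.05 was found for 1004, 899 and 1005 of them in that order.

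Slc13a2 and Slc13a3, the sodium-coupled dicarboxylate importers, were near the limit of detection. Slc13a2 was counted 18, 12, 5 and 11 times in untreated libraries A to D, 24, 10, 10 and 4 times with itaconate, 11, 8, 7 and 5 times with lipid, and 16, 6, 0 and 2 times with lipid + itaconate. All groups overlapped. A count of 0 in lipid + itaconate C allows a level of up to 0.102 CPM (3 counts, counting error only). The lowest p was that of lipid + itaconate against itaconate, with a log2 change of -1.23 ± 0.554, an unadjusted p of 0.0237 and an adjusted p of 0.0942 in the model without a minimum level. It was lower in 4 of 4 letters, but the p-value takes little account of this gene's own spread between libraries. Slc13a2 had log2 changes of -0.16 ± 0.506 with itaconate, -0.84 ± 0.581 with itaconate on lipid and -0.55 ± 0.529 with lipid, and none passed (adjusted p = 1, 0.75 and 0.624). Leaving out a library moved the change on lipid from -1.24 (lipid + itaconate A) to -0.45 (lipid + itaconate C) and the lipid change from -0.80 (lipid C) to -0.21 (untreated D).

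Slc13a3, the importer described for itaconate, was counted 3, 20, 15 and 19 times in untreated libraries A to D and 1, 16, 16 and 29 times with itaconate. It was counted 6, 13, 16 and 21 times with lipid and 6, 5, 13 and 19 times with lipid + itaconate. Letter more than treatment separated these libraries. In letter A, Slc13a3 ranged from 0.0363 to 0.244 CPM, and in letters B to D from 0.193 to 0.836 CPM. For Slc13a2 the order was the other way, with 0.447 to 0.870 CPM in letter A and 0 to 0.421 CPM in the others. The itaconate change of Slc13a3 was -0.08 ± 0.418 (95% interval -0.90 to 0.74), its lipid change 0.05 ± 0.425 and the change of lipid + itaconate against lipid -0.48 ± 0.436. Lipid + itaconate against itaconate gave -0.35 ± 0.431. Leaving out lipid + itaconate B brought these last changes to -0.18 and -0.06, and their other extremes were -0.66 (without lipid + itaconate D) and -0.58 (without itaconate A). With adjusted p between 0.735 and 1, a change within these wide intervals was not detectable at this depth.

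**Figure D3:**
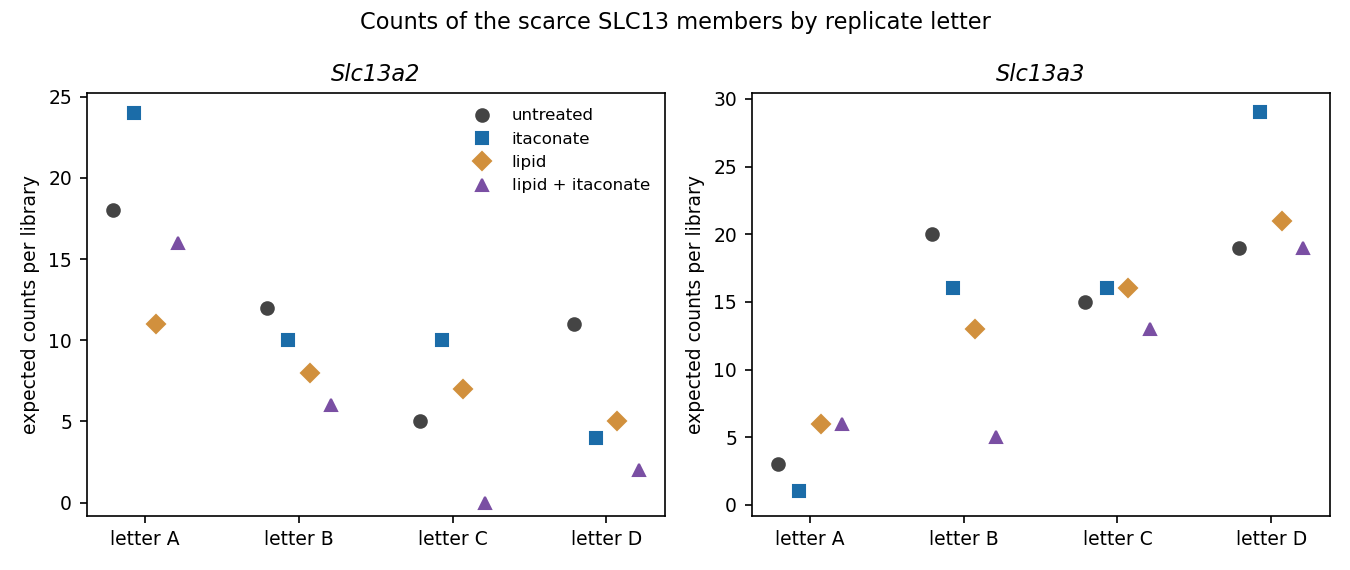
Expected counts per library (y axis) of Slc13a2 and Slc13a3 by replicate letter (x axis), with colours and shapes for the 4 groups. Slc13a3 stood at 1 to 6 counts in letter A and 5 to 29 in the other letters, and Slc13a2 at 11 to 24 in letter A and 0 to 12 in the others.

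Letter A also tended to differ from the other letters for the more abundant carriers, with ranges that overlapped for each of them but Slc25a10. Medians of letter A against letters B to D were 65.8 against 82.4 CPM for Abcg2, 51.2 against 45.1 CPM for Slc25a10, 37.9 against 31.7 CPM for Slc25a11, 184 against 176 CPM for Slc25a1 and 24.3 against 26.7 CPM for Slc13a5. The model took these shifts out as a block. With that letter effect removed, over 16 libraries, Slc25a11 and Abcg2 had a Pearson r of -0.96, Slc25a1 and Slc25a11 of 0.78, and Slc13a5 and Slc25a11 of 0.71. Slc25a10 and Slc13a5 had an r of 0.01. These coefficients are a description over libraries that share 4 treatments, and the libraries are not independent points.

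The genes whose levels followed each carrier most closely were found the same way over the 16 libraries. Only the letter effect was removed and treatment was not, so genes with a like response to treatment score high. The genes named are the highest r among the genes tested, and whether any share regulation was not tested. For Slc25a11 they were Def8 (r = 0.99), Bcap29 (0.98) and Prpsap2 (0.97), and for Abcg2 they were Arid5b (0.98), Rnf5 (0.98) and Nedd4l (0.98). For Slc13a5 they were Atg9b (0.96), Col4a1 (0.93) and Clybl (0.93). Slc25a1 was followed by Mrps2 (0.96), Fam129a (0.94) and Prdx3 (0.93), and Slc25a10 by Atf3 (0.97), Ets2 (0.96) and the bile acid importer Slc10a1 (0.94).

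Among the other mitochondrial carriers listed beside these genes, more were called lower than higher with lipid. This list of 9 held carboxylate carriers and the phosphate carrier Slc25a3. Of the 9, 8 were tested, 1 rose and 4 fell with lipid, with a list median of -0.20 on the log2 scale. Of all genes tested, 23.8% were called higher and 23.7% lower (47.5% in all). Slc25a12, an aspartate-glutamate carrier of the same shuttle as Slc25a11, rose by 0.33 ± 0.087 (adjusted p = 0.00559). Slc25a13, the other aspartate-glutamate carrier, fell by 0.30 ± 0.051 on the log2 scale (adjusted p = 0.000171). The phosphate carrier Slc25a3 fell by 0.31 ± 0.047 (adjusted p = 8.55e-05), and the glutamate carrier Slc25a22 fell by 0.21 ± 0.042 (adjusted p = 0.000732, lost without the block). The remaining gene called lower lost its call in 10 of 24 alternatives. In lipid + itaconate against itaconate the same list had 1 higher and 5 lower, with a median of -0.26, where 47% of all genes were called. Slc25a22 was also the only gene of the list called with itaconate, where 4.91% of all genes tested were called. Its change was -0.27 ± 0.041 (adjusted p = 0.00159, lost without the block). Its call in lipid + itaconate against lipid (-0.17 ± 0.042, adjusted p = 0.0458) was lost in 20 of 24 alternatives. Of all genes tested 2.58% were called there.

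Of 10 other anion carriers of the plasma membrane, 4 were tested. Slc16a7, a monocarboxylate transporter, fell with lipid by 0.50 ± 0.139 on the log2 scale (adjusted p = 0.00751). It was 1 of 4 called with lipid, where 47.5% of all genes tested were called. Against itaconate, lipid + itaconate called Slc16a7 (-0.35 ± 0.136, adjusted p = 0.0431, lost in 9 of 24 alternatives) and the sulfate and oxalate exchanger Slc26a1 (-0.30 ± 0.101, adjusted p = 0.0249, lost in 5) as lower. Of all genes tested 47% were called there. Itaconate against untreated called 0 of the 4 with edgeR, DESeq2 and limma-trend, and 0 had an unadjusted p under 0.05. Of all 11675 genes tested, edgeR called 4.91% in that comparison, and 2482 had an unadjusted p under 0.05. Lipid + itaconate against lipid also called 0 with each tool, and 1 had an unadjusted p under 0.05. Of all genes tested, edgeR called 2.58% there, and 2025 had an unadjusted p under 0.05.

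Of 10 other ABC exporters of hepatocytes, all were tested, and with lipid 1 rose and 4 fell, with a median of -0.32 beside the -0.40 of Abcg2. Those 5 of 10 stand beside 47.5% called among all genes tested. Abcc3, an exporter of the basolateral membrane, rose by 0.40 ± 0.038 (adjusted p = 8.59e-07). Abcb1b, a multidrug exporter, fell by 0.77 ± 0.080 (adjusted p = 2.05e-06), the canalicular conjugate exporter Abcc2 fell by 0.37 ± 0.048 (adjusted p = 1.58e-05), and the sterol exporter subunit Abcg5 fell by 0.67 ± 0.164 (adjusted p = 0.00343). These 4 calls stayed in all 24 alternatives. In lipid + itaconate against itaconate, 1 rose and 7 fell, with a median of -0.30, where 47% of all genes were called. With itaconate only Abcb1b was called (-0.29 ± 0.078, adjusted p = 0.046), and that call was lost in 13 of 24 alternatives (up to 0.446), among them those without any of the itaconate libraries, untreated B, C or D, lipid A, B or D, or lipid + itaconate D. In that comparison 6 of the 10 exporters had an unadjusted p under 0.05. Of all 11675 genes tested, edgeR called 4.91% there, and 2482 had an unadjusted p under 0.05. Lipid + itaconate against lipid called 0 of 10 with edgeR and limma-trend and 1 with DESeq2, and 1 had an unadjusted p under 0.05. Of all genes tested, edgeR called 2.58% there and DESeq2 called 512, and 2025 had an unadjusted p under 0.05 with edgeR.

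**Figure D4:**
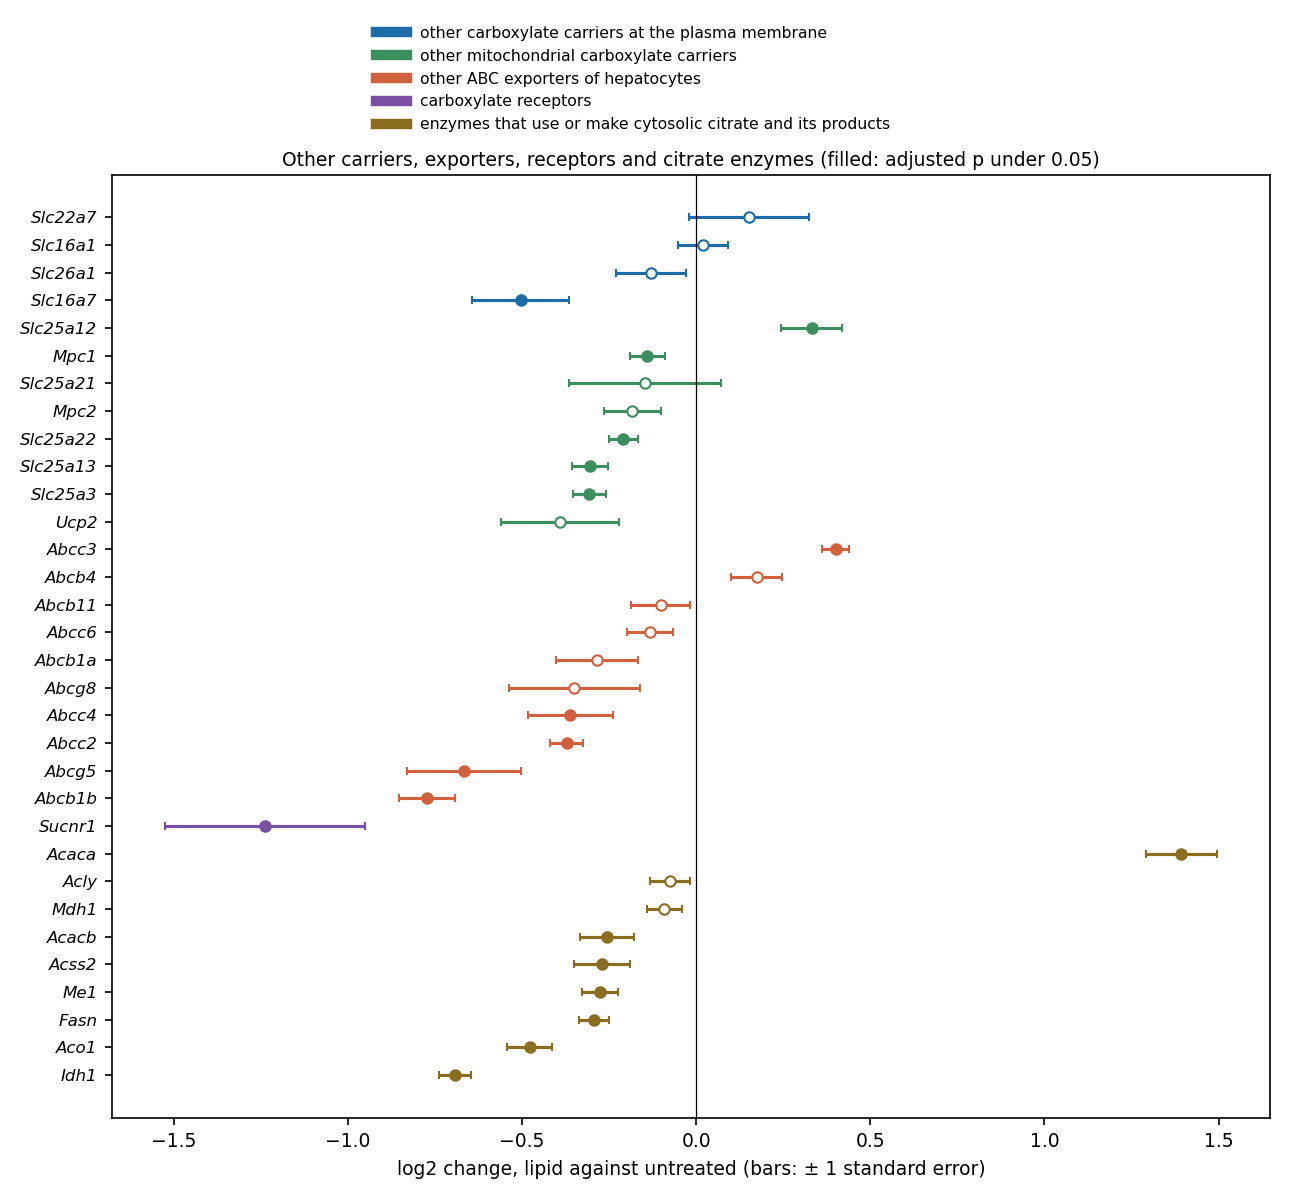
Log2 change between lipid and untreated cells (x axis) of the tested genes of the 5 lists (rows, coloured by list), with bars of ± 1 standard error and filled points for an adjusted p under 0.05. Acaca (1.39), Abcc3 (0.40) and Slc25a12 (0.33) are the genes called higher, and the other called genes lie below 0.

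The enzymes around cytosolic citrate, which SLC13A5 and SLC25A1 supply, did not move together with lipid. All 9 were tested, and with lipid 1 rose and 6 fell, with a median of -0.27, where 23.8% of all genes tested were called higher and 23.7% lower (47.5% in all). Acaca, which makes malonyl-CoA for fatty acid synthesis, rose by 1.39 ± 0.103 (adjusted p = 6.65e-08). The cytosolic isocitrate dehydrogenase Idh1 fell by 0.69 ± 0.046, the cytosolic aconitase Aco1 fell by 0.48 ± 0.065 and the fatty acid synthase Fasn fell by 0.29 ± 0.042 on the log2 scale (adjusted p = 2.46e-08, 2.63e-05 and 4.8e-05). Lipid + itaconate against itaconate gave 1 higher and 7 lower, with a median of -0.32, where 47% of all genes were called.

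When itaconate was added to lipid, Acaca and the ATP-citrate lyase gene Acly were the 2 of 9 enzymes called, both lower. Of all genes tested 2.58% were called there, 1.26% as lower. Acaca held 126, 104, 128 and 138 CPM in lipid libraries A to D and 115, 92.2, 71.0 and 80.3 CPM in lipid + itaconate libraries, and these groups overlapped while every letter was lower. Acaca fell by 0.48 ± 0.099 on the log2 scale (adjusted p = 0.0221), and the call was lost without the block, with the 8 libraries only, and without lipid C, lipid D or lipid + itaconate D (up to 0.248). Acly fell by 0.26 ± 0.057 (adjusted p = 0.0278), and this was lost in 8 of 24 alternatives (up to 0.232), among them those without lipid C or D, or without lipid + itaconate A, B or D. Without lipid, itaconate called 0 of these 9 enzymes with edgeR and limma-trend and 1 with DESeq2, and 1 had an unadjusted p under 0.05. Of all 11675 genes tested, edgeR called 4.91% in that comparison, and 2482 had an unadjusted p under 0.05.

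Of the 2 receptors that sense extracellular carboxylates, the 2-oxoglutarate receptor Oxgr1 had 0 counts in all 16 libraries. The succinate receptor Sucnr1 was scarce. It held 2.53, 1.33, 0.986 and 1.28 CPM in untreated libraries A to D, 3.41, 2.62, 1.54 and 1.73 CPM with itaconate, 1.178, 0.451, 0.446 and 0.540 CPM with lipid, and 2.704, 2.31, 0.542 and 0.824 CPM with lipid + itaconate. Letter A was the highest library in every group, and the untreated and lipid groups overlapped only through lipid A. Sucnr1 fell with lipid by 1.24 ± 0.288 on the log2 scale (adjusted p = 0.00232, lost without the block). On lipid, itaconate raised it by 1.22 ± 0.284 (adjusted p = 0.0342), in 4 of 4 letters, but this call was lost in 12 of 24 alternatives, with adjusted p up to 0.391. Leaving out untreated A, itaconate B, any lipid library or lipid + itaconate A or B ended it. Without lipid the itaconate change of 0.61 ± 0.242 was not called (adjusted p = 0.152).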

How the data were processed

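Messenger RNA captured from total RNA of treated and untreated hepatocytes was sequenced as 16 libraries made with a stranded kit. The authors deposited expected counts per gene. According to the submitters' processing notes they used bcl2fastq 2.20, cutadapt 1.18, STAR 2.7.0f, Picard 2.18.26 and RSEM 1.3.1 with build mm10, and the filter and batch removal they describe came after this table. Of the deposited expected counts 5.41% were not whole, and all were rounded. The 11675 genes whose average over the 16 libraries reached 1 CPM were tested with edgeR 4.0.16 (R 4.3.3) by quasi-likelihood F tests after TMM scaling, with treatment and replicate letter as terms, Benjamini-Hochberg adjustment over all genes tested and a threshold of 0.05. DESeq2 1.42.0 and limma-trend (limma 3.58.1) were alternatives, beside the letter block, the scaling, the filter, the libraries fitted and each library left out.

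Groups and letters came from the sample titles. Deviations from group means correlated between same-letter libraries of different groups in all 24 pairs (0.144 to 0.469), against a median of -0.11 over 72 other pairs, so the letters pair the libraries. Pairs of libraries within a group differed by more than sampling noise, with a chi-square per gene of 10.0 to 147 (larger is less alike). The highest values were in lipid + itaconate, where B stood at 128, 147 and 106 against A, C and D. There A against C was at 64.5 and C against D at 14.5. The highest value in another group was 41.8 (lipid A against C). Lipid + itaconate C also had the highest mitochondrial share, at 6.01%. How this spread bears on the calls against lipid was not tested. Members and lists were chosen with earlier results of these data known. The text names all 7 members, for each list up to 4 called genes by smallest adjusted p, and the 3 genes most like each member.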

Additional observations from a re-analysis of the deposited data

Results flagged for a closer look

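Among the 28 sets of 4 libraries (7 carriers in 4 groups), 1 library stood far from the rest of its group by Dixon's criterion. Abcg2 in lipid + itaconate library A was at 59.0 CPM, while the other libraries of the group held 74.3 to 76.2 CPM (statistic 0.891). Chance marks about 1 in 20 such sets. Without that library, the log2 change of Abcg2 between lipid + itaconate and itaconate was -0.38, and it stayed called. Letter A was the lowest library of Abcg2 in the other groups too, at 72.6 CPM in untreated, 57.4 CPM in lipid and 80.2 CPM in itaconate. The model took letter shifts out as a block, while the criterion was applied to levels that still held them.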

How the results depend on the processing

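Of the carriers' log2 changes under the alternatives, 753 values kept direction and side of the threshold, 32 lost and 3 gained a call, and 25 changed sign. Without the replicate letter as a block, 23 genes (0 carriers) were called for itaconate against untreated, 9 (0) for lipid + itaconate against lipid and 0 for the interaction, and 2 carriers for lipid + itaconate against itaconate. With no filter on low counts the numbers of genes were 1091, 725 and, for the interaction, 231. With only the 8 libraries compared they were 1859 (2 carriers) and 14 (0), and fewer libraries then set the spread. DESeq2 called 512 genes and 2 carriers for lipid + itaconate against lipid and 36 genes for the interaction, and RLE size factors and the filterByExpr filter 2 each for the interaction. Letters B to D, an analysis chosen after the data were seen, gave 176 (0 carriers), 26 (0) and 0. Leaving out a library gave 149 (itaconate C) to 1047 (lipid + itaconate C) genes and 0 to 1 carriers for itaconate against untreated, 59 (lipid + itaconate A) to 889 (lipid + itaconate C) genes and 0 to 2 carriers for lipid + itaconate against lipid, and 0 to 8 genes for the interaction. For the former (573 genes with all libraries), other counts that moved by over 1.5 times were 267, 284, 291 and 275 without untreated A to D, 356 without itaconate B and 285 without itaconate D. For the latter (301 genes) they were 175 without untreated A, 97, 190, 145 and 85 without lipid A to D, and 134 and 156 without lipid + itaconate B and D. The cause of these shifts was not tested.

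Signs changed only for log2 changes of at most 0.16 in size. With letters B to D these were Slc13a3 with itaconate (0.0582) and with lipid (-0.0754), Slc25a10 with lipid (0.0015) and the Slc25a11 interaction (-0.0205). Leaving out a library gave -0.22 to 0.18 and -0.0822 to 0.31 for these Slc13a3 changes, -0.0528 to 0.0013 for Slc25a10 with lipid and -0.44 to 0.16 for Slc13a2 with itaconate. The interaction ranged from -0.0323 to 0.0363 for Slc25a11, -0.0222 to 0.0399 for Abcg2 and -0.00603 to 0.0479 for Slc25a1. Of 50 calls on list genes, 27 stayed in all alternatives. Below 1 CPM, as for Slc13a2 and Slc13a3, depth limits what could be seen.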
